A study of Mus musculus with 25 samples.

Results

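The multicopper ferroxidase gene Hephl1 and 8 genes that handle iron and copper (Heph, Cp, Slc40a1, Tfrc, Fth1, Slc11a2, Steap3 and Steap4) were described in mouse perigonadal white adipose tissue (pgWAT). The members were found as the probes whose gene name in the scanner files was one of these symbols, which gave 20 of the 56605 probes on the array and 9 of its 37008 named genes, and all 20 probes passed the filter on dim spots. Hephl1 was picked for its large fall in total ChREBP KO mice, so its values there are given as a description with no test. ChREBP, encoded by Mlxipl, is a glucose-sensing transcription factor made in a long form (α) and a short form (β), and the study asked how pgWAT gene expression depends on each. RNA of 25 mice was measured, 1 mouse per single-colour array, in 4 groups: 6 ChREBPβ KO mice, which lack exon 1b of Mlxipl in every tissue after CRISPR/Cas9 editing; 7 WT mice of that line; 5 total ChREBP KO mice, which are Mlxipl-null in every tissue and lack both forms; and 7 WT mice of that line. Each KO group was compared with the WT mice of its own line, all mice were males on a C57BL6/J background, and every mouse, WT included, had been fasted for 24 h and then refed for 18 h with food and water containing 20% glucose. Ages were not given in the sources used here.

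Iron leaves a cell as ferrous iron through ferroportin and has to be oxidised by a copper-containing ferroxidase before it can bind transferrin in plasma. Cells take iron back up through the transferrin receptor, reduce it with STEAP metalloreductases, move it out of endosomes through DMT1 and store it in ferritin. Copper supply and iron export are linked through the ferroxidases, which is why copper carriers and copper enzymes are grouped here with the iron genes.

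Levels are quantile-normalised log2 intensities, on which a difference of 1 is a doubling, and a difference was called when its Benjamini-Hochberg adjusted p from limma, over the 39619 probes tested, was below 0.05. Levels of different probes are not comparable with each other. Array median intensity ranged from 84 to 127 against a local background of 15 to 22, between 73.0% and 77.9% of spots were well above background, and arrays of a group correlated at 0.971 to 0.997. Adipocyte markers (Adipoq, Plin1, Fabp4, Lep and Cidec) averaged 15.55 to 16.36 in every array, and 2 of the 5 were called higher in total ChREBP KO (median difference of the 5, 0.32), where their log2 summed level was 19.99 to 20.03 against 19.68 to 19.84 in WT. Liver markers (Alb, Ttr, Apoa1, Serpina1a and Fgb) were also present, with means of 12.93 to 16.55 in the WT mice of the ChREBPβ line, 11.42 to 16.01 in ChREBPβ KO, 7.50 to 13.57 in the WT mice of the total line and 7.02 to 8.23 in total ChREBP KO. All 5 were called lower in the total-line WT mice than in the ChREBPβ-line WT mice, 1 of 5 was called lower in total ChREBP KO and none in ChREBPβ KO, and Alb was at 10.48 or above in every array. Of 7 macrophage markers none was called in any contrast. Of 6 epididymis markers 2 were tested, Adam7 and Defb42. Their log2 summed level was 16.51 and 14.16 in total-line WT replicates 2 and 8 and 13.94 in ChREBPβ KO replicate 2. It was 13.38 in ChREBPβ-line WT replicate 1, 12.64 in total ChREBP KO replicate 7 and 5.57 to 10.66 in the other arrays. Outside the total-line WT mice Adam7 was at 8.37 or below in every array, so the high sums there came from Defb42. Mlxipl itself ranged from 15.64 to 16.28 in the total-line WT mice and from 14.08 to 14.29 in their KO, with no overlap, and from 14.70 to 15.43 against 14.02 to 14.70 in the ChREBPβ line. Where that probe lies relative to the deleted sequence was not analysed here.

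Hephl1 was represented by 1 probe, A_66_P137676, at chr9:14856410-14856469 (mm9, minus strand). The 250 bases before its annotated start, at chr9:15112109-15112358 (GRCm38.p6, minus strand, RefSeq), are shown because Hephl1 had the widest difference among the members, with capitals marking a TATAA match read on either strand:
Hephl1 upstream: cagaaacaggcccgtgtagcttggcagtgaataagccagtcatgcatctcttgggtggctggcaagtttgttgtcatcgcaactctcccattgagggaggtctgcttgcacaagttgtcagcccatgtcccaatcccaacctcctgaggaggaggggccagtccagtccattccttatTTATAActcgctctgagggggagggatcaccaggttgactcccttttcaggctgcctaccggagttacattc
The window searched ran from 250 bases before to 50 bases after each start. TATAA on either strand was found in 24.9% of all 32851 such windows. It was in 6 of the 12 member windows. The E box CACGTG, the same on both strands, was found in 7.15% of all windows and in none of the 12 windows that RefSeq gave for 6 of the members (Hephl1, Cp, Tfrc, Fth1, Steap3 and Steap4), which says only that these letters are not in those windows.

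Hephl1, a membrane ferroxidase related to hephaestin and ceruloplasmin, was low in 4 of the 5 total ChREBP KO arrays and at intermediate level in the fifth. The total ChREBP KO arrays read 4.92 (replicate 1), 5.19 (replicate 2), 5.55 (replicate 3), 5.08 (replicate 4) and 8.97 (replicate 7). The WT mice of that line lay between 9.62 and 10.77, with a median of 10.29, so the highest KO array was under the lowest WT array. The fitted difference was -4.31 (SE 0.58), a level 19.8-fold lower, and -5.15 (SE 0.47) without replicate 7. In bulk tissue, fewer cells that express a gene and less RNA per cell cannot be told apart. The spot was well above background on every array, but its raw intensity in KO replicates 1 to 4 was 29 to 43.5 over a local background of 20 to 23, compared with 401 over 18 in replicate 7. The size of the difference varied with the treatment of background, at -5.16 on the scanner's processed signal and -3.52 after normexp correction. Replicate 7 did not stand apart in Mlxipl, at 14.19 within a KO range of 14.08 to 14.29. Replicate 7 did stand apart in the log2 summed level of Adam7 and Defb42, at 12.64 against 6.02 to 7.49 in the other 4 KO arrays. Adam7 lay at 4.49 to 7.03 in the 5 KO arrays and Defb42 reached 12.63, so this sum came from Defb42. Its part in the Hephl1 level was not tested. Within the 4 wash batches, the differences were -5.36, -4.08, -1.63 and -5.23, the smallest in the batch whose only KO array was replicate 7.

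In the ChREBPβ line, Hephl1 ranged from 7.57 to 10.45 in WT, with a median of 9.18, and from 8.23 to 10.50 in ChREBPβ KO, with a median of 10.17. The groups overlapped over most of their range, with 1 low array in each. The difference of 0.63 (SE 0.55, 95% interval -0.51 to 1.78) was not called (limma adjusted p = 0.798). Ordered by mean, Hephl1 was at 10.30 ± 0.40 (SD, n = 7) in the total-line WT mice, 9.90 ± 0.87 (SD, n = 6) in ChREBPβ KO, 9.34 ± 0.96 (SD, n = 7) in the ChREBPβ-line WT mice and, lowest, total ChREBP KO at 5.94 ± 1.71 (SD, n = 5). The ranges of the first 3 overlapped and that of total ChREBP KO lay below the total-line WT and overlapped the low ends of both ChREBPβ-line groups through replicate 7.

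**Figure D1:**
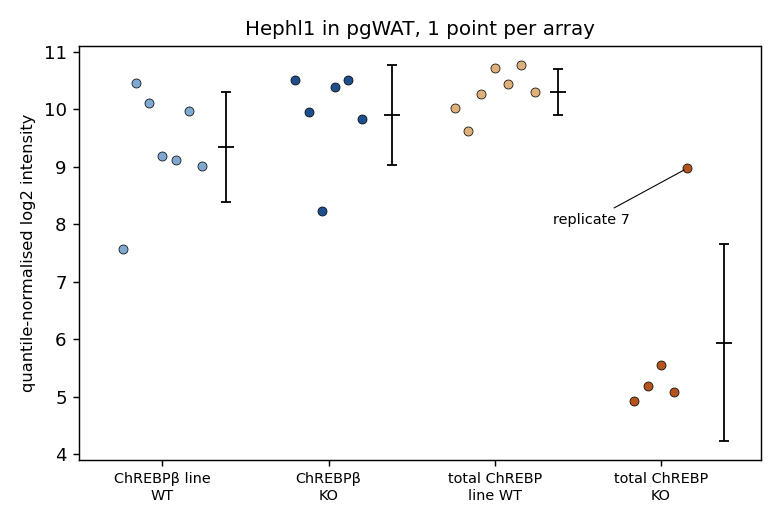
Quantile-normalised log2 intensity of the Hephl1 probe, 1 point per array, in the 4 groups, with the group mean and SD as a bar at the right of each. The total ChREBP KO arrays sit between 4.92 and 5.55 except replicate 7 at 8.97, and the 7 WT arrays of that line between 9.62 and 10.77.

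Among the genes whose levels followed Hephl1 most closely over the 25 arrays were Map6, a microtubule-associated protein (r = 0.94), Taf6, a subunit of the TFIID complex (r = 0.91), Deptor, an inhibitor of mTOR (r = 0.89), and Haus3, a subunit of the augmin complex (r = 0.89). After group means were removed, these correlations were 0.73, 0.70, 0.56 and 0.64. Without total ChREBP KO replicate 7 they were 0.68, -0.20, 0.58 and 0.71, so that of Taf6 rested on this array. The points share arrays and normalisation, and the r values are a description. By array, Taf6 was at 9.90 in total ChREBP KO replicate 7, 5.51 to 5.85 in the other 4 KO arrays and 10.34 to 10.69 in the WT mice of that line. These are values of the probe A_55_P2722200 (chr5:138621376-138621435, mm9), which was named by symbol and not by accession. It lies on chromosome 5, which also carries Mlxipl, as does the Haus3 probe. Whether that place bears on its level was not tested. Among the most opposed genes were Sfxn2 (r = -0.86), Zfp53 (r = -0.86) and Gnb5 (r = -0.85). Among the members, the correlation with Hephl1 was -0.76 for Heph, -0.58 for Fth1 and 0.54 for Steap4, and it lay between -0.33 and 0.16 for the rest. After group means were removed, it was -0.33 for Heph, -0.08 for Fth1 and 0.26 for Steap4. Along chromosome 9, within 1000 kb of the Hephl1 probe on either side (mm9), 41 other probes of 25 genes were tested. In total ChREBP KO 5 of them were called, against 8.95% of all probes, and none differed by more than 0.67. These were both Sesn3 probes (0.63 and 0.67), 1 of AU015680 (0.40) and 2 of 3 Taf1d probes (-0.35 each), named after their values were seen. None was called in ChREBPβ KO, against 0.00505% of all probes.

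Heph, the ferroxidase hephaestin that acts with ferroportin at the cell membrane, rose in total ChREBP KO. Its brightest probe, A_55_P2488639 (chrX:93769721-93769780, mm9, plus strand), read 13.60, 13.41, 13.62, 13.41 and 13.37 in KO replicates 1, 2, 3, 4 and 7, against 12.57 to 12.91 (median 12.87) in the WT mice of that line. Every KO array was above every other array of the series, and 4.40% of all genes had every KO array above the WT arrays of that line. The difference was 0.69 (SE 0.09), a 1.61-fold rise (limma adjusted p = 1.94e-05). A second probe, A_55_P1994194, has the same sequence, followed the first at r = 0.99 and gave 0.70 (SE 0.10). The remaining probe, A_55_P1994190 at chrX:93725815-93725874, lies toward the 5′ end of the gene and gave 0.39 (SE 0.15), which was not called (limma adjusted p = 0.111). It was also dim, with a raw intensity of 82 to 182 over a local background of 14 to 23. The brightest probe read 3980 to 13341. Why the probes differed in size of difference was not tested. In ChREBPβ KO, Heph read 12.23 to 12.78 (median 12.72) against 12.34 to 12.79 (median 12.53) in WT, a difference of 0.06 (SE 0.09) with overlapping groups. The effect in the total line exceeded that in the ChREBPβ line by 0.62 (SE 0.12, limma adjusted p = 0.00456). Replicate 7 of total ChREBP KO, which stood apart in Hephl1, was with the other KO arrays in Heph.

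In total ChREBP KO, 1 of the 5 liver markers was called lower, with a median difference of -2.06 over the 5, and Heph correlated with their mean at -0.80 over the 25 arrays. Total-line WT replicates 8 and 5, whose liver means of 7.50 and 8.06 fell within the KO range, had Heph at 12.80 and 12.90. With the liver marker level as a covariate, added after seeing the data, the Heph difference was 0.60 (SE 0.10, limma adjusted p = 0.000658). The part of liver RNA in the Heph rise was not tested.

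Cp encodes ceruloplasmin, the ferroxidase of plasma, which is also made in a membrane-anchored form. It had 5 probes, all on chromosome 3. The brightest, A_55_P2111302, and a second probe that lies toward the 5′ end from it, A_55_P2626135, gave the largest differences, and their sequences are shown because the size of the Cp difference varied from probe to probe (mm9, plus strand, chr3:19874934-19874993 for the first line and chr3:19889071-19889130 for the second, no base marked):
Cp A_55_P2626135: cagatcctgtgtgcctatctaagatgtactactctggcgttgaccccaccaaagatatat
Cp A_55_P2111302: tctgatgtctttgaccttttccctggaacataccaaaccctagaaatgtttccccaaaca
With A_55_P2111302, ChREBPβ KO arrays read 11.93 to 13.57 (median 12.36) and their WT mice 12.98 to 14.10 (median 13.54). Replicates 4 and 8 of ChREBPβ KO, at 13.56 and 13.57, lay within the WT range and the other 4, at 11.93 to 12.53, below it. The difference was -0.91 (SE 0.22, unadjusted p = 0.000489 in limma's fit across all probes), which was not called (adjusted p = 0.246). It was called without ChREBPβ KO replicate 4 (-1.07, limma adjusted p = 0.041) and with array quality weights (-1.04, limma adjusted p = 0.0432). In total ChREBP KO the same probe read 12.92, 12.77, 12.60, 12.71 and 12.77, below all 7 WT arrays at 13.01 to 13.40. The groups of that contrast did not overlap for 7.58% of all genes (4.40% with KO higher and 3.18% with KO lower). That difference of -0.48 (SE 0.23) was not called when all groups shared 1 estimate of the spread (limma adjusted p = 0.243) and was called when the total line was fitted alone (-0.46, SE 0.06, limma adjusted p = 0.00142). The effects in the lines differed by 0.42 (95% interval -0.24 to 1.09), which was not called (limma adjusted p = 0.697).

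A_55_P2626135 gave -0.65 (SE 0.19) in ChREBPβ KO and -0.40 (SE 0.20) in total ChREBP KO, neither called. The 2 probes nearest the 3′ end, A_55_P2087607 and A_52_P597002, gave -0.19 and -0.16 in ChREBPβ KO and -0.18 and -0.14 in total ChREBP KO. The fifth, A_55_P2853032, gave -0.41 and -0.36. All 10 estimates were below 0 and none was called, and differences between the probes were not tested. Liver is a major source of Cp transcript. The 2 high ChREBPβ KO arrays, replicates 4 and 8, had the highest liver marker means of that group (15.86 and 16.01, against 11.42 to 13.92 in the other 4). With the liver level as a covariate, the brightest probe gave -0.73 (SE 0.18) in ChREBPβ KO and -0.09 (SE 0.22) in total ChREBP KO, neither called. The part of liver RNA in the Cp levels was not tested.

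**Figure D2:**
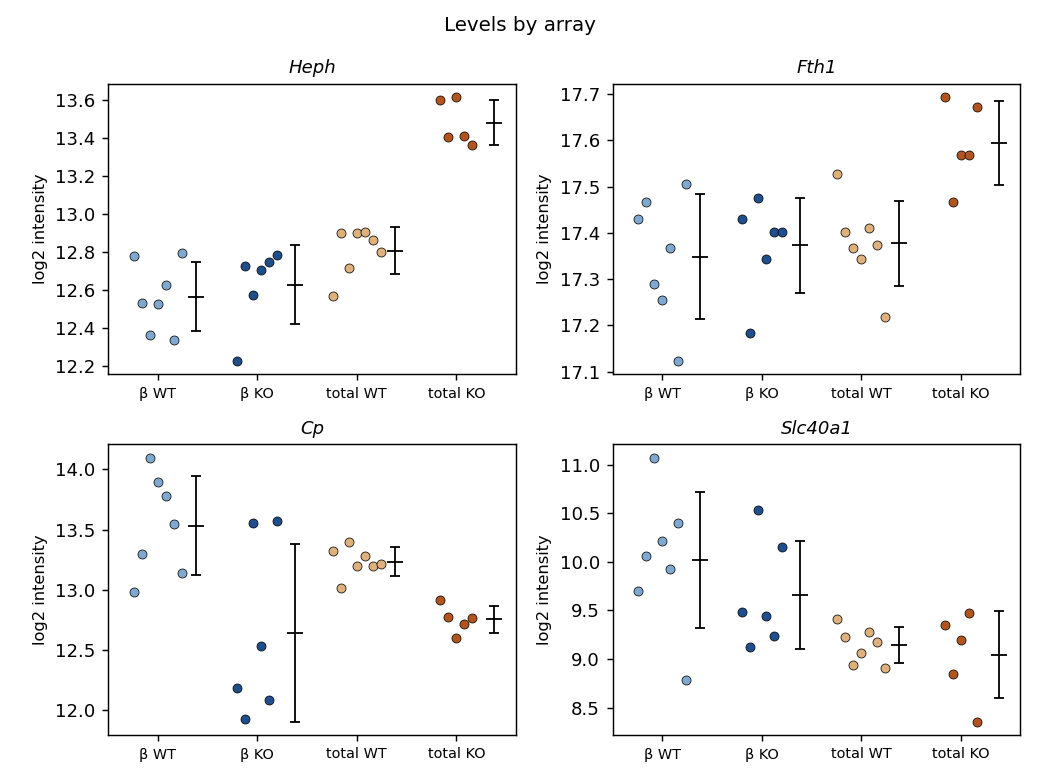
Log2 intensity of Heph, Fth1, Cp and Slc40a1 (brightest probe of each) by array in the 4 groups, with each group's mean and SD at its right and a separate scale for each gene. Heph is higher in all 5 total ChREBP KO arrays (13.37 to 13.62) than in any other array, and Cp is spread over 11.93 to 13.57 in ChREBPβ KO.

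Slc40a1 encodes ferroportin, the known iron exporter of mammalian cells and a transcript of macrophages as well as hepatocytes. Its brightest probe, A_51_P389988 (chr1:45965255-45965314, mm9, minus strand), read 9.35, 8.85, 9.20, 9.48 and 8.36 in total ChREBP KO replicates 1, 2, 3, 4 and 7, and 8.91 to 9.42 (median 9.17) in their WT mice, with overlap and a difference of -0.14 (SE 0.29). In ChREBPβ KO it read 9.12 to 10.53 (median 9.46) against 8.79 to 11.07 (median 10.06), a difference of -0.38 (SE 0.27, limma adjusted p = 0.727). The largest contrast was between the WT groups, where the total line differed by -0.88 (SE 0.26, limma adjusted p = 0.0193) with overlapping ranges. It was not called without total-line WT replicate 4 (-0.79, limma adjusted p = 0.05) or without ChREBPβ-line WT replicate 3 (-0.73, limma adjusted p = 0.0522). Slc40a1 correlated with the liver marker mean at 0.76 over the 25 arrays, and with that mean as a covariate the WT difference was 0.12 (SE 0.34). Liver means overlapped little between the WT groups, so that fit cannot well separate liver level from line. The second probe, A_55_P2620111, was dim, at a raw intensity of 23 to 40 over a local background of 14 to 19 in total-line WT. Its spot was well above background on 5 of the 7 total-line WT arrays, but was found, significant and well above background on only 2. The probe was kept through the ChREBPβ KO group alone. It gave a WT difference of -0.68 (limma adjusted p = 0.00211), which rests on total-line WT values near background. In total ChREBP KO it gave 0.21 (SE 0.16), opposite in sign to the brightest probe, and neither was called.

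Both iron uptake genes among the members overlapped between KO and WT. Tfrc, the transferrin receptor, read 9.61, 9.57, 9.52, 10.07 and 9.22 in total ChREBP KO replicates 1, 2, 3, 4 and 7, around a WT median of 9.55 with a lowest WT array of 9.32, and 8.76 to 9.29 in ChREBPβ KO against 8.48 to 9.99 in WT. The differences of -0.04 (95% interval -0.35 to 0.28) and -0.22 (95% interval -0.52 to 0.08) were not called, and the groups overlapped in both lines. Its second probe gave 0.04 and -0.01. Slc11a2, which encodes the ferrous iron transporter DMT1, had 4 probes. The brightest, A_55_P2830119, differed by 0.01 (95% interval -0.13 to 0.15) in total ChREBP KO and 0.04 (95% interval -0.09 to 0.17) in ChREBPβ KO. A_52_P196476 gave -0.30 (SE 0.11) in total ChREBP KO, which was not called (limma adjusted p = 0.0865), and the other 2 gave -0.08 and 0.02. Between the WT groups, the brightest Slc11a2 probe was higher in the total line, at 9.39 to 9.61 against 9.12 to 9.46, by 0.23 (SE 0.06, limma adjusted p = 0.00771), and it was not called with the liver covariate (0.27, limma adjusted p = 0.107).

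Among the metalloreductases, Steap3, the endosomal ferrireductase, read 9.60 to 10.08 in total ChREBP KO and 9.52 to 9.94 in WT, a difference of 0.04 (95% interval -0.18 to 0.25). It differed by -0.07 (95% interval -0.28 to 0.13) in ChREBPβ KO. Steap4, a metalloreductase abundant in adipose tissue, read 10.99 to 11.34 (median 11.07) in total ChREBP KO against 11.15 to 11.79 (median 11.36) in WT, a difference of -0.27 (95% interval -0.56 to 0.03). In ChREBPβ KO it differed by 0.11 (95% interval -0.17 to 0.39). The groups overlapped and no difference was called for either gene. On some arrays the spot finder had not located the brightest Tfrc spot (located on 3 of 5 total ChREBP KO arrays), the Steap4 spot or the Slc11a2 spots of A_51_P388737 and A_52_P254298. All of these were well above background. A_52_P254298 was located on 0 of 5 total ChREBP KO and 1 of 6 ChREBPβ KO arrays, against 7 of 7 and 6 of 7 WT arrays of those lines. Spots of A_55_P2620111 (Slc40a1), A_55_P1994190 (Heph) and A_55_P2853032 (Cp) were also not located on some arrays.

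Fth1, the heavy chain of ferritin that stores iron, read 17.69, 17.47, 17.57, 17.57 and 17.67 in total ChREBP KO replicates 1, 2, 3, 4 and 7 and 17.22 to 17.53 (median 17.37) in WT. Only replicate 2 of the KO fell inside the WT range. The difference of 0.22 (SE 0.07) was called (limma adjusted p = 0.0476), close to the threshold, and was not called under 6 of the 11 other ways of processing (adjusted p of 0.013 to 0.207 over the 11). With 1 array left out at a time it was called in 7 of 25 fits, namely without ChREBPβ KO replicate 3 or 4, ChREBPβ-line WT replicate 2, 7 or 8, total ChREBP KO replicate 2 or total-line WT replicate 2. In ChREBPβ KO the difference was 0.02 (95% interval -0.11 to 0.16). The effects in the lines differed by 0.20 (SE 0.10), which was not called (limma adjusted p = 0.378).

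**Figure D3:**
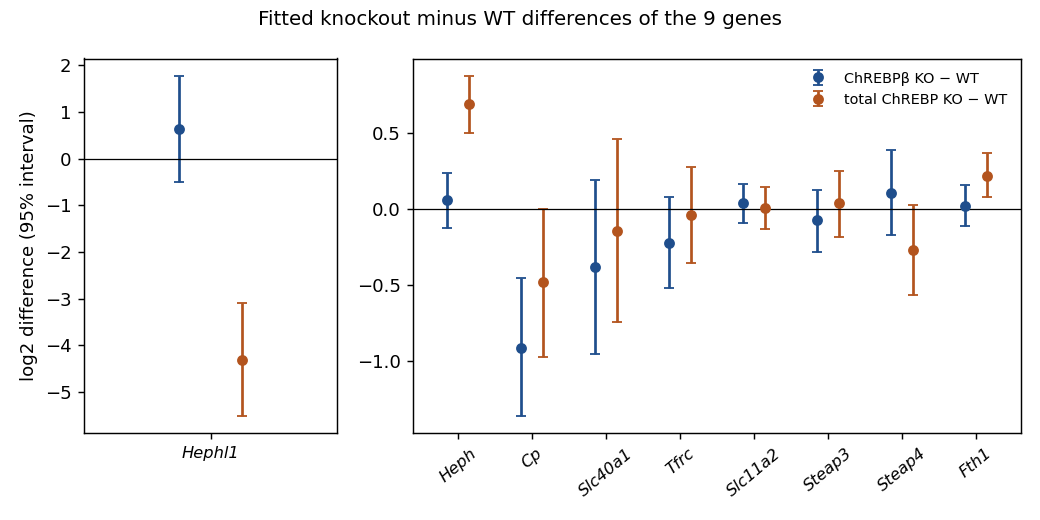
Fitted log2 difference of KO from WT with its 95% interval for the 9 genes (brightest probe), in ChREBPβ KO and total ChREBP KO, with Hephl1 on its own scale. Hephl1 was chosen on its total ChREBP KO value of -4.31. Of the others, Heph at 0.69 and Fth1 at 0.22 in total ChREBP KO were called.

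Of the 8 members other than Hephl1, 2 (Heph and Fth1) were called in total ChREBP KO, both higher, against 9.36% of all 25908 genes tested by their brightest probe (5.74% higher and 3.62% lower). The members' median difference was -0.01 and that of all genes 0.02. In ChREBPβ KO none of the 9 was called by limma, 1 (Cp) had an unadjusted p below 0.05, as did 9.71% of all genes, and 0.00772% of all genes were called. Heph was the 1 member called for the difference between the effects, against 3.49% of genes. Between the WT groups 3 were called, Slc11a2 and Heph higher and Slc40a1 lower in the total line, against 22.2% of all genes (13.4% higher and 8.71% lower). None of these 3 was called with the liver covariate. Liver marker means overlapped little between the WT groups (7.50 to 13.57 in the total line, 12.93 to 16.55 in the ChREBPβ line). That fit therefore cannot well separate liver level from line. The Heph call between WT groups (0.24) was also lost without any 1 of 4 ChREBPβ-line WT arrays (replicates 2, 3, 6 and 7). The same held for 5 total-line WT arrays (replicates 3 to 7), with limma adjusted p of 0.0617 to 0.101 over these fits. The contrasts share WT arrays, so their counts are not independent.

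A wider list of 55 iron and copper genes, of which 53 were tested, gave 6 calls in total ChREBP KO, 5 higher and 1 lower, which is 11.3% of the list beside 9.36% of all genes. Their median difference was -0.01. Hfe, a membrane protein that binds the transferrin receptor and takes part in iron sensing, rose by 1.18 (SE 0.14, limma adjusted p = 3.63e-06), from 12.03 to 12.34 in WT to 13.18 to 13.51 in KO with no overlap (KO was higher with no overlap in 4.40% of all genes). Its other probe gave 1.28 (SE 0.19, limma adjusted p = 6.47e-05). In ChREBPβ KO the Hfe difference was 0.42 (SE 0.13, limma adjusted p = 0.342), and the effects in the lines differed by 0.76 (SE 0.19, limma adjusted p = 0.0259), which was not called for the other probe (0.80, limma adjusted p = 0.109). That call was also lost without ChREBPβ KO replicate 3 or total ChREBP KO replicate 1, 4 or 7 (adjusted p of 0.0522 to 0.0589). Alas1, the first enzyme of haem synthesis, rose by 0.81 (SE 0.08, limma adjusted p = 7.19e-07), from 15.03 to 15.25 in WT to 15.82 to 16.16 in KO with no overlap. Its other 2 probes gave 0.73 and 0.71, both called. The part of the adipocyte marker shift in these rises and in that of Heph was not tested. With the liver covariate the difference was 0.76 for Alas1 and 1.1 for Hfe, both called. In ChREBPβ KO Alas1 differed by 0.00 (SE 0.08), and its effects in the lines differed by 0.81 (SE 0.12, limma adjusted p = 0.00013).

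The remaining calls were smaller. Aco1, the cytosolic aconitase that binds iron-responsive elements when iron is low, rose by 0.36 (SE 0.09, limma adjusted p = 0.0172). Its effect in the total line exceeded that in the ChREBPβ line by 0.47 (SE 0.13, limma adjusted p = 0.0495), a call that was lost in 21 of the 25 fits that left out 1 array. The other Aco1 probe gave 0.33 in total ChREBP KO and 0.33 for the difference between effects, neither called (limma adjusted p = 0.141 and 0.494). Fbxl5, an iron-sensing ubiquitin ligase subunit, rose by 0.26 (SE 0.07, limma adjusted p = 0.0192), and its other kept probe gave 0.15, which was not called (limma adjusted p = 0.384). Pcbp1, an iron chaperone that delivers iron to ferritin, rose by 0.20 (SE 0.05, limma adjusted p = 0.0235). Loxl4, a copper-dependent lysyl oxidase, fell by 0.45 on the log2 scale (SE 0.14, limma adjusted p = 0.0386), and its other kept probe gave -0.28, which was not called (limma adjusted p = 0.317). The Pcbp1 and Loxl4 groups did not overlap, and those of Aco1 and Fbxl5 did, beside no overlap in 7.58% of all genes (4.40% with KO higher and 3.18% lower). None of the 4 was called under every setting. Without total ChREBP KO replicate 1, 2 or 3, the count of wider genes called was 3, 3 and 2, and the losses were among these 4. Hfe and Alas1 were called in total ChREBP KO under all 11 alternatives and without any single array. By role, calls in total ChREBP KO among members and wider genes together fell on iron regulation (3 of 8 genes), iron storage (2 of 5), the ferroxidases other than Hephl1 (1 of 2), mitochondrial iron and haem (1 of 10) and copper enzymes (1 of 12), beside 9.36% of all genes, and roles were not tested against each other. None of 6 iron uptake genes, 5 metalloreductases, 3 iron exporters or 10 copper transporters and chaperones was called. Among the iron uptake genes that are no members, Slc39a8, a zinc and iron transporter, gave -1.06 (SE 0.37, limma adjusted p = 0.0834) and Tfr2 -1.27 (SE 0.56, limma adjusted p = 0.189) in total ChREBP KO. In ChREBPβ KO none of the 53 wider genes was called by limma and 10 had an unadjusted p below 0.05, beside 0.00772% and 9.71% of all genes, the smallest p being for Lox, the lysyl oxidase (0.51, SE 0.13, limma adjusted p = 0.281), which was called without ChREBPβ KO replicate 4 (0.62, limma adjusted p = 0.041).

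**Figure D4:**
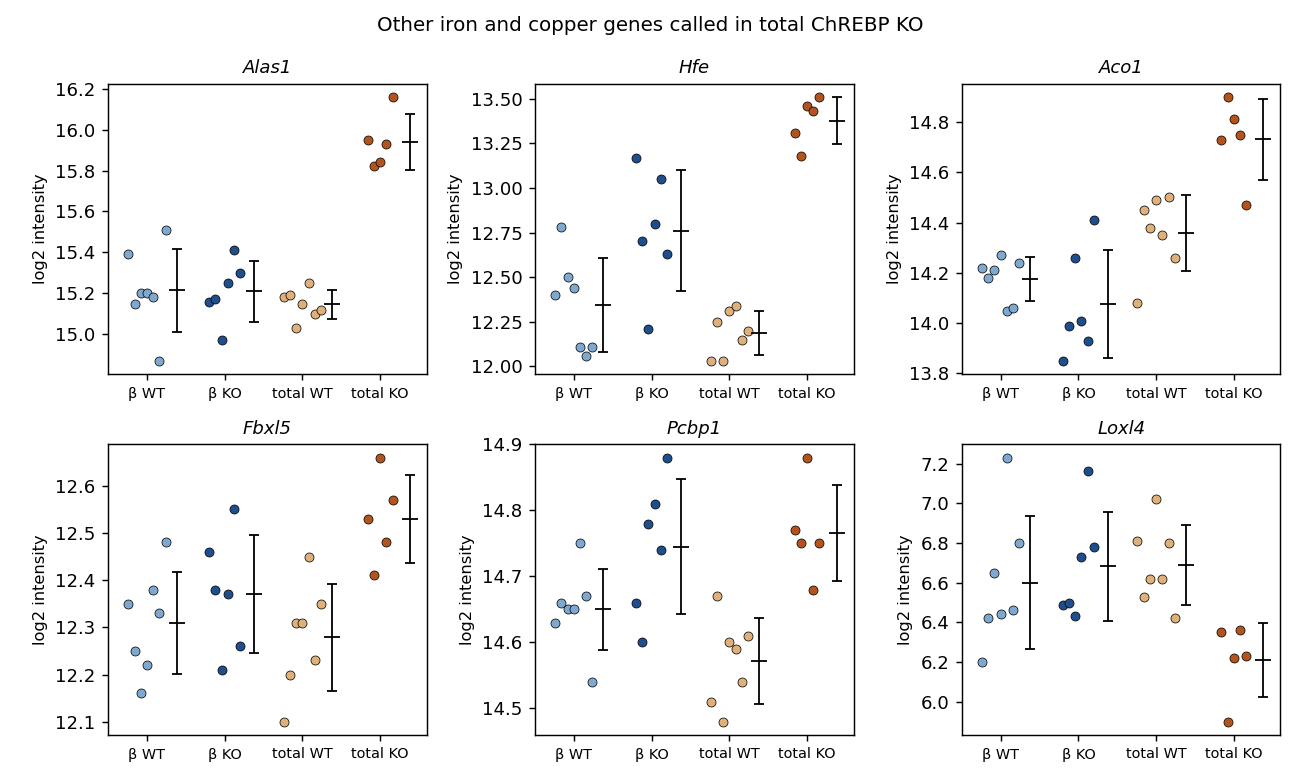
Log2 intensity by array of the 6 wider iron and copper genes called in total ChREBP KO, with each group's mean and SD at its right and a separate scale for each gene. Alas1 (15.82 to 16.16) and Hfe (13.18 to 13.51) are higher in all 5 total ChREBP KO arrays than in the WT arrays of that line.

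Between the WT groups, 13 of the 53 wider genes were called, 5 higher and 8 lower in the total line, against 22.2% of all genes. The largest differences were in genes that the liver uses to regulate iron. Hamp, which encodes the iron hormone hepcidin, ranged from 4.30 to 10.98 (median 5.25) in the total-line WT mice and from 7.81 to 13.34 (median 11.85) in the ChREBPβ-line WT mice, a difference of -5.08 (SE 0.95, limma adjusted p = 0.000687). Tfr2, the second transferrin receptor, differed by -3.90 (SE 0.50, limma adjusted p = 2.71e-05) with no overlap, which 5.53% of all genes showed, and Tmprss6, a protease that restrains hepcidin, by -2.76 (SE 0.57, limma adjusted p = 0.00154) with overlap. Over the 25 arrays, Hamp, Tfr2 and Tmprss6 correlated with the liver marker mean at 0.96, 0.97 and 0.90. With that mean as a covariate, the WT difference was 0.09 for Hamp, -1.25 for Tfr2 and 0.10 for Tmprss6, and none was called. Sod3, the extracellular copper and zinc superoxide dismutase (-0.73, SE 0.12), was called with and without the covariate. Ccs, the copper chaperone of superoxide dismutase, differed by -0.50 (SE 0.10), and by -0.11 with the covariate, which was not called. Because liver means overlapped little between the WT groups, the covariate cannot well separate liver level from line. The part of the liver signal in these differences was not tested further.

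**Figure D5:**
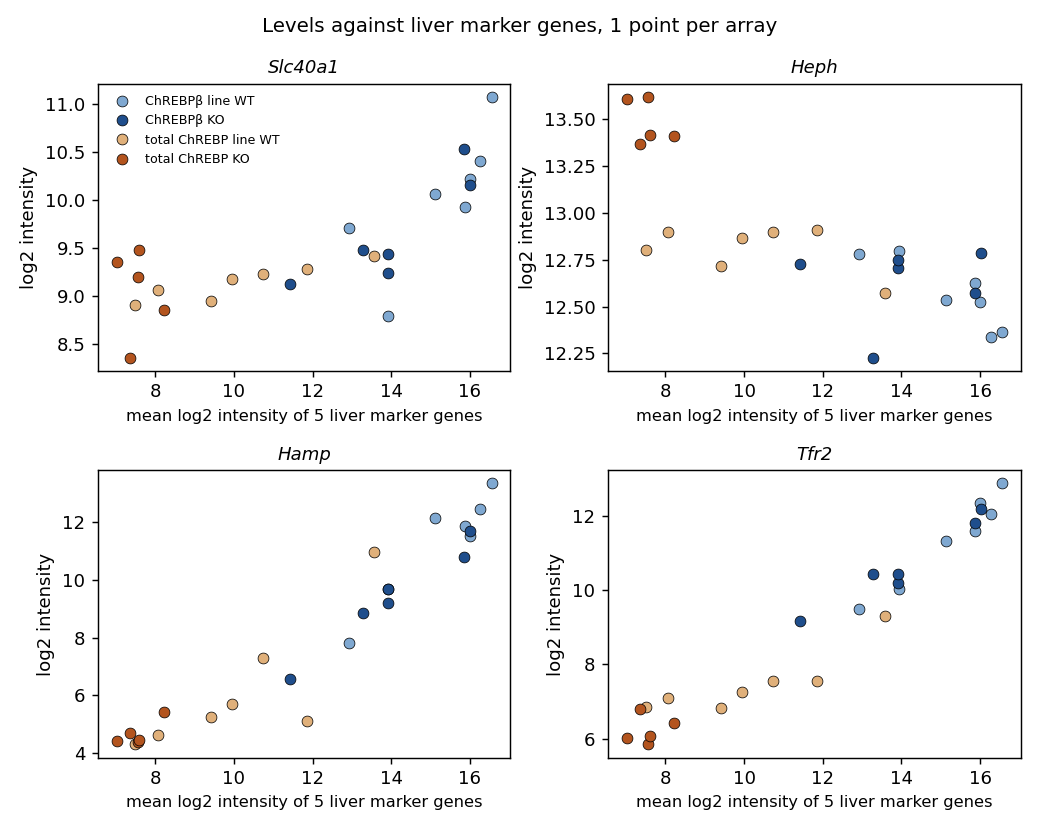
Log2 intensity of Slc40a1, Heph, Hamp and Tfr2 against the mean log2 intensity of 5 liver marker genes, 1 point per array, coloured by group. Hamp and Tfr2 rise with the liver markers over all arrays (r of 0.96 and 0.97). The total ChREBP KO arrays lie above all others in Heph, including the 2 total-line WT arrays with liver means as low as theirs. The part of liver RNA in these levels was not tested.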

How the data were processed

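RNA of pgWAT from 25 mice was labelled with Cy3 and hybridised, 1 mouse per array, to Agilent SurePrint G3 Mouse GE v2 arrays. The authors deposited scanner intensities from Feature Extraction 10.10.1.1 (median spot intensity, local background and a background-subtracted processed intensity) and a table of quantile-normalised log2 values. The deposited log2 values correlated with those computed here at 0.99999 or above on each array and differed by at most 0.0736 for the members. Following the study's methods, log2 median intensity was used without background correction, spots found, significant and well above background on 21 of the 25 arrays or in 75% of a group (6, 5, 6 or 4 arrays) were kept, and values were quantile-normalised and the median taken over spots of 1 probe. Spots that the scanner software flagged as outliers were also set to missing before normalisation, a step not in the study's methods. No member value was lost by it. The filter left 39619 probes, and each gene was read from its brightest kept probe. Differences were fitted with limma 3.58.1 (R 4.3.3) on group and wash batch over all arrays, 18 residual degrees of freedom, and p-values were adjusted over all probes. All 4 wash batches hold all 4 groups. Scripts were tested on simulated data.

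The members, gene lists and tests were chosen with earlier results of these data known. Hephl1 was tested only between ChREBPβ KO and WT. Named genes were all members, the wider genes called in a KO contrast, the leading ones between WT groups, and the genes with the highest and lowest correlation with Hephl1, besides exceptions stated in the text and a few that are not reported here. Probe coordinates are on mm9, per the file headers. RefSeq names came by accession for 32994 probes and by symbol for 10224. Promoters were those of RefSeq on GRCm38.p6, and no mm9 annotation was used. Of the wider list, Tf had no probe here and the 1 probe of Ftmt was not kept. Replicate numbers showed no sign of pairing the mice. In 29 pairs of arrays with the same number in different groups, the median correlation of residuals was -0.01, and 9 were above 0.1. In 204 pairs with other numbers it was -0.02, and 73 were above 0.1. Low correlations cannot exclude that the numbers marked related mice. Alternatives were 10 settings planned, a liver covariate added after seeing the data, and each array left out. The number of arrays limits the precision.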

Additional observations from a re-analysis of the deposited data

Results flagged for a closer look

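A sample stood far from the rest of its group in 4 of the 36 groups of member values examined (9 genes in 4 groups), by a gap to its nearest neighbour that was large against the group's whole range. Chance alone gives this in about 1 in 20 groups. Hephl1 in total ChREBP KO replicate 7 was at 8.97, with the next array at 5.55 (gap 0.846 of the range). Hephl1 in ChREBPβ KO replicate 4 was at 8.23, with the next at 9.82 (gap 0.701 of the range). Steap4 in total ChREBP KO replicate 7 was at 11.34, with the next at 11.08 (gap 0.748 of the range). Steap3 in total-line WT replicate 2 was at 9.52, with the next at 9.77 (gap 0.598 of the range). This array had the highest summed level of the epididymis markers Adam7 and Defb42 of the 25. Total ChREBP KO replicate 7 had the highest sum of its group, through Defb42. In Mlxipl, total ChREBP KO replicate 7 lay within its group.

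In 4 of 61 members and wider genes tested, or 6.56% beside 3.49% of all genes, the effect of losing both ChREBP forms differed from the effect of losing the β form, by limma's test of the difference itself. The effect in the total line was higher by 0.62 for Heph (adjusted p = 0.00456), 0.81 for Alas1 (adjusted p = 0.00013), 0.76 for Hfe (adjusted p = 0.0259) and 0.47 for Aco1 (adjusted p = 0.0495). It was not called for the other Hfe and Aco1 probes (0.80 and 0.33, limma adjusted p = 0.109 and 0.494) or for the dim 5′ Heph probe (0.35, limma adjusted p = 0.545). The lines also differ in their WT mice, and why the effects differed was not tested.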

How the results depend on the processing

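Hephl1 in total ChREBP KO ranged from -5.16 to -3.52 over the 11 alternatives and from -5.15 to -4.03 with 1 array left out, and in ChREBPβ KO from 0.47 to 0.72 and from 0.26 to 0.96. The Heph rise in total ChREBP KO (0.59 to 0.71 over the alternatives) was called in all 11 and in all 25 fits without 1 array. The count of members called in total ChREBP KO was 1 in place of 2, with Fth1 lost, on the 75th-percentile processed signal, the value table as deposited, without the filter on dim probes, with the replicate block and with the liver covariate. With array quality weights, 1 member (Cp) was called in ChREBPβ KO in place of 0, 21 wider genes between WT groups in place of 13, and 6 for the difference between effects in place of 3. With the liver covariate 0 members in place of 3, and 6 wider genes, were called between WT groups, and 5 wider genes for the difference. Leaving out 1 array gave 1 to 2 members in total ChREBP KO, 0 to 1 in ChREBPβ KO (Cp, without ChREBPβ KO replicate 4) and 1 to 4 between WT groups. For wider genes it gave 2 to 7 in total ChREBP KO, 0 to 1 in ChREBPβ KO (Lox, without the same array) and 1 to 5 for the difference, with 1 (Alas1) without total ChREBP KO replicate 1 or 4 or ChREBPβ KO replicate 3, and 5 without ChREBPβ KO replicate 4. The cause of these changes was not tested.

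Replicate numbers showed no sign of pairing in the correlations of residuals. With the replicate block, members called in total ChREBP KO were 1, wider genes called for the difference were 1, and Hephl1 in total ChREBP KO was -4.04. The block also ended the calls of Slc40a1 between WT groups (limma adjusted p = 0.0673), of Pcbp1 and Aco1 in total ChREBP KO (0.0834 and 0.0566) and of Hfe for the difference (0.152), and turned the Slc11a2 difference between effects to 0.06. Of 25 arrays, 2 correlated best with their own number.

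The estimates that changed sign in total ChREBP KO or ChREBPβ KO had not been called there. Between WT groups, 5 called estimates changed sign with the liver covariate (Slc40a1, Slc39a14, Hamp, Hjv and Tmprss6). In total ChREBP KO, Tfrc was 0.02 without the wash batch term, 0 with the mean of probes and 0.01 with the liver covariate. Slc11a2 was -0.02 with array weights, -0.01 with each line fitted alone and -0.09 with the mean of probes. Steap3 was 0 with array weights and with the liver covariate, and Slc40a1 0.04 with the mean of probes and 0.37 with the liver covariate. With the mean of probes, Slc11a2 was -0.03 in ChREBPβ KO and Cp 0.02 between WT groups. With the liver covariate the WT difference turned to 0.48 for Cp, 0.12 for Slc40a1, -0.04 for Steap3, 0.02 for Slc39a14, 0.09 for Hamp, 0.01 for Hjv and 0.10 for Tmprss6. With 1 array left out, total ChREBP KO differences ran from -0.13 to 0.04 for Tfrc, -0.02 to 0.05 for Slc11a2, -0.02 to 0.11 for Steap3 and -0.29 to 0.04 for Slc40a1. ChREBPβ KO differences ran from -0.14 to 0 for Steap3 and -0.01 to 0.07 for Fth1, WT differences from -0.02 to 0.09 for Steap3 and -0.01 to 0.07 for Fth1, and the Slc11a2 difference between effects from -0.07 to 0.01.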
